A study of Mus musculus with 6 samples.

Results

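The cytosolic ribosomal protein genes encode the protein part of the 40S and 60S ribosomal subunits. They were taken as the mouse gene symbols that start with Rps or Rpl followed by a number, with Rplp0, Rplp1, Rplp2 and Rpsa, without the S6 kinases and Rps27l. Of 82 symbols with such a name, 80 reached 1000 unique molecular identifiers (UMIs, one for each captured transcript) over all libraries. These 80 of 32285 genes held 42447878 of the 289570950 UMIs. The 3 members nearest above the limit were Rpl3l with 1238 UMIs, Rpl7l1 with 14416 and Rpl22l1 with 99315. Below it lay Rpl39l with 262 UMIs and Rpl10l with 1.

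The cells were CD45+ cells from mouse hearts, CD45 being the surface marker of leukocytes, profiled with droplet libraries that tag the 3' end of each transcript. The 6 libraries formed 3 groups of 2, all collected at 28 days: sham-treated C57Bl6J wild type, C57Bl6J wild type whose heart had received 12 Gy in a single fraction, and mice with the same irradiation labelled C57Bl6J Tmem and STING KO. STING is the adaptor of cytosolic DNA sensing, and no sham library of that genotype was analysed here, so no genotype difference in unirradiated hearts could be computed. The labels give no age, no sex and no number of animals per library, so a p-value measures only the spread between libraries, which may be technical. The kept cells numbered 3394 to 6014 per library, with a median of 4405 and 4588 UMIs per cell in the sham pair, 6367 and 5524 in the irradiated wild-type pair, and 6801.5 and 6186.5 in those labelled knockout. The labels name 3 NovaSeq flow cell kits without saying which library ran on which. Between 6 and 38 cell barcodes were shared by any pair of libraries, at most 0.460% of the smaller one. Clusters were named from marker genes, and 10 classes had at least 20 cells in each library. They included endothelial-like cells (Cdh5, Kdr) and fibroblast-like cells (Dcn, Col1a1), which are not leukocytes, despite the CD45 sort.

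A ribosome needs 1 copy of nearly every ribosomal protein, and the transcripts of these genes are usually produced and translated together. Vertebrate ribosomal protein transcripts begin with a C followed by a run of C and T, the 5' terminal oligopyrimidine tract, through which the mTOR pathway controls their translation. Some members also act outside the ribosome: RPL5 and RPL11 with 5S RNA bind MDM2 and so stabilise p53, and RPS27A is made as a fusion with ubiquitin. Loss of single copies of RPS19 and other members causes Diamond-Blackfan anaemia, and the muscle paralog RPL3L replaces RPL3 in heart and skeletal muscle.

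The start of the transcript is shown for 4 of the genes on which the results below turn, all with a tract at the annotated start. They are Rps27 and Rpl38, which were lower in the libraries labelled knockout, Rpl15, which was higher in irradiated endothelial-like cells, and Rps9, which stood out in neutrophil-like cells. Each window holds 25 bases before the RefSeq start (GRCm38.p6) and the 25 bases from it on, and the capitals mark a C followed by at least 4 C or T beginning within 3 bases of the start on the gene's strand. The windows lie at chr3:90213624-90213673 on the minus strand, chr11:114668555-114668604 on the plus strand, chr14:18270962-18271011 on the minus strand and chr7:3704016-3704065 on the plus strand, in that order.
Rps27: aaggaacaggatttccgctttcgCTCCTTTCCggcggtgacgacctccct
Rpl38: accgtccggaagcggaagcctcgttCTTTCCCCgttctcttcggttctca
Rpl15: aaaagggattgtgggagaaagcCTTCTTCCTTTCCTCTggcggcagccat
Rps9: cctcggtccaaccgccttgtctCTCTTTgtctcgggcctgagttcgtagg
No such tract was found at the matched starts of Rps19, Rplp0, Rpl7l1, Rpl39, Rpl37, Rpl37a, Rps28 and Rps25, on which the results below also turn. Windows of this kind held a tract for 13.5% of 27025 genes. RefSeq promoters were matched for 60 of the 80 members, under the 80% needed for a share over the members, so none is given. A tract in these letters is a description of the annotated start and not a measurement of where transcription began.

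The share of UMIs taken by the 80 genes set the classes apart far more than it set the groups apart. In T cell-like cells it was 32.8% and 38.1% in the sham pair, 31.3% and 31.7% in the irradiated wild-type pair, and 36.0% and 32.5% in those labelled knockout. In macrophage-like cells, the largest class, the same shares were 12.4% and 12.2%, 12.1% and 11.9%, and 12.3% and 11.8%. In neutrophil-like cells they were 4.89% and 4.39%, 4.07% and 5.10%, and 4.69% and 4.39%. Every library of the neutrophil-like class thus lay below every library of the other 9 classes. B cell-like cells followed T cell-like cells with 29.3% ± 1.73 (mean ± SD, n = 6 libraries), then dendritic cell-like cells with 20.6% ± 0.789, monocyte-like cells with 18.2% ± 0.520 and NK cell-like cells with 17.8% ± 1.35. Cycling cells had 14.5% ± 1.11, and endothelial-like, macrophage-like and fibroblast-like cells had 12.3% ± 0.358, 12.1% ± 0.232 and 11.9% ± 0.747. Monocyte-like and NK cell-like cells, and the last 3 classes, did not differ beyond their spread. The lead of T cell-like cells depended on the processing: at a coarser clustering (Leiden resolution 0.5) their share was 25.4% against 28.8% in B cell-like cells, and with at most 5% mitochondrial UMIs it was 22.6%. This order is a description, since the classes were built from the same cells, although the ribosomal protein genes were left out of the clustering.

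**Figure D1:**
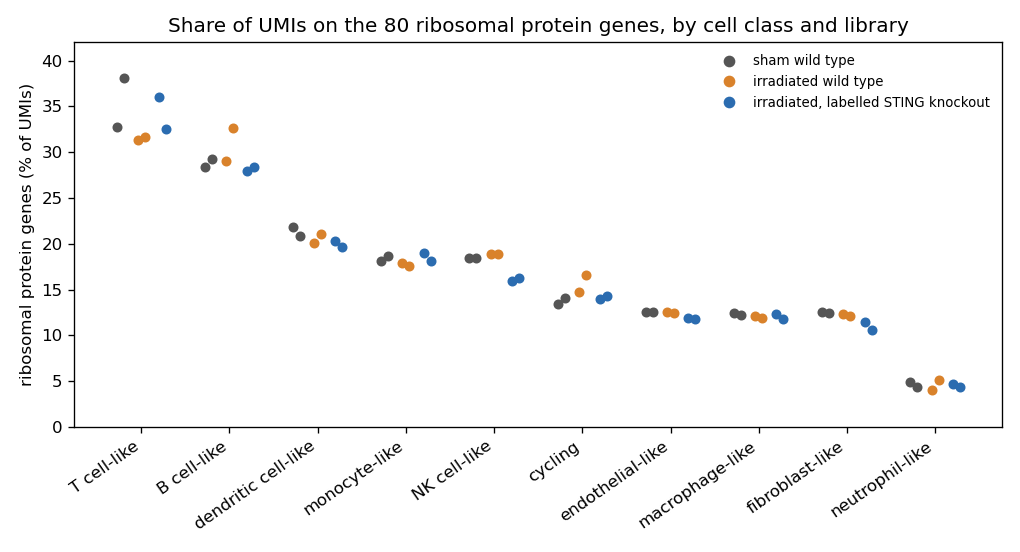
Share of UMIs on the 80 ribosomal protein genes (% of UMIs, y axis) in each of 10 cell classes (x axis), one point for each of the 6 libraries, coloured by group. All 6 neutrophil-like points lie between 4.07% and 5.10% and the T cell-like points between 31.3% and 38.1%, while the libraries of 1 class lie close together against that range.

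Within macrophage-like cells the share also differed between clusters. The cluster led by Lilra5 and Cx3cr1 had 13.1% to 14% over the 6 libraries, and the cluster led by Tnf and Ccl4, both inflammatory cytokine genes, 13.0% to 14.1%. The clusters led by Vsig4 and Lyve1 and by Cd209f, genes of resident tissue macrophages, had 11.6% and 11.1%, and 11.3% and 11.5%, in the sham pair. In the irradiated wild-type pair these lay below both sham values, at 10.3% and 10.1%, and 9.81% and 10.1%. In the libraries labelled knockout they were 10.9% and 10.4%, and 10.7% and 10.1%. The drop was not particular to these 2 clusters. The Tnf cluster had 13.9% and 14.1% in sham against 13.5% and 13.0% in irradiated wild type. A cluster led by Slc40a1 and Stab1 had 12.1% and 12.0% against 10.9% and 11.4%. In the Lilra5 cluster the 2 pairs overlapped. With 2 libraries against 2, an exact permutation test of a single share cannot give a two-sided p below 0.333, so these differences were not tested.

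Next, the makeup of the ribosomal protein transcripts was compared between classes, as each member's share of the ribosomal protein UMIs, for the 78 members with at least 20 UMIs in each library of each of the 10 classes. In the other 9 classes the profile was common: the median member departed from the mean of the remaining classes by 0.0772 to 0.169 on the log2 scale, and no member by 1 or more. In neutrophil-like cells the median departure was 0.456, where replicate libraries of that class differed by at most 0.134 in the median. Neutrophil-like cells were also among the shallowest, with a median of 1498 to 2392 UMIs per cell.

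In neutrophil-like cells 4 members had a share of the ribosomal protein UMIs at least 2-fold higher than in the other classes. Rps9, a 40S protein that binds the ribosomal RNA early in assembly, took 5.56%, 5.58%, 6.33%, 4.99%, 5.75% and 5.64% in the 6 libraries in the order sham, irradiated wild type, labelled knockout. In macrophage-like cells it took 1.57% to 1.69%. Its departure in neutrophil-like cells was 1.95 on the log2 scale. In CPM, the count scaled to a common total of all UMIs of the class and library, Rps9 lay at 2451 to 2721 in neutrophil-like cells and at 1899 to 2097 in macrophage-like cells, with no overlap between these classes, although the class as a whole had the lowest share of UMIs on the members. Rps27a, the ubiquitin fusion, took 4.02% to 4.30% (departure 1.46), Rps27 4.84% to 6.50% (1.19) and Rpl37, a zinc-binding 60S protein, 3.42% to 4.55% (1.19). Rpl41, the shortest member with 25 codons, was next with a departure of 0.81.

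The 9 members with a share at least 2-fold lower in neutrophil-like cells came from both subunits. They were Rpl10a with a departure of -1.53, Rpl12 with -1.5, Rpl3 with -1.37, Rps18 with -1.30, Rpsa with -1.27, Rps19 with -1.14, Rps20 with -1.12, Rpl4 with -1.03 and Rps4x with -1.02. RPL3 is a core protein of the peptidyl transferase centre, RPL12 lies at the base of the stalk, and Rpsa encodes the laminin receptor protein of the 40S. Rpl3 took 0.284% to 0.393% of the ribosomal protein UMIs in neutrophil-like cells and 0.843% to 0.890% in macrophage-like cells. Its counts rested on as few as 53 UMIs in a neutrophil-like library. The small subunit as a whole took 48.0% to 49.0% of the ribosomal protein UMIs in neutrophil-like cells and 43.4% to 47.7% in the other classes.

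Outside neutrophil-like cells the departures were smaller. Rpl22l1, the paralog of Rpl22, varied most among the other 9 classes, with an SD of 0.432 on the log2 scale. It took 0.399% to 0.531% in fibroblast-like cells and 0.175% to 0.215% in macrophage-like cells, with no overlap between the libraries of these classes. Rpl12 was highest in T cell-like cells at 1.23% to 1.5%, with a departure of 0.92. Rps19 had its lowest departure outside neutrophil-like cells in NK cell-like cells (-0.58), and Rpl10, needed for export and activation of the 60S, was low in T cell-like cells (-0.63) and high in macrophage-like cells (0.51).

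**Figure D2:**
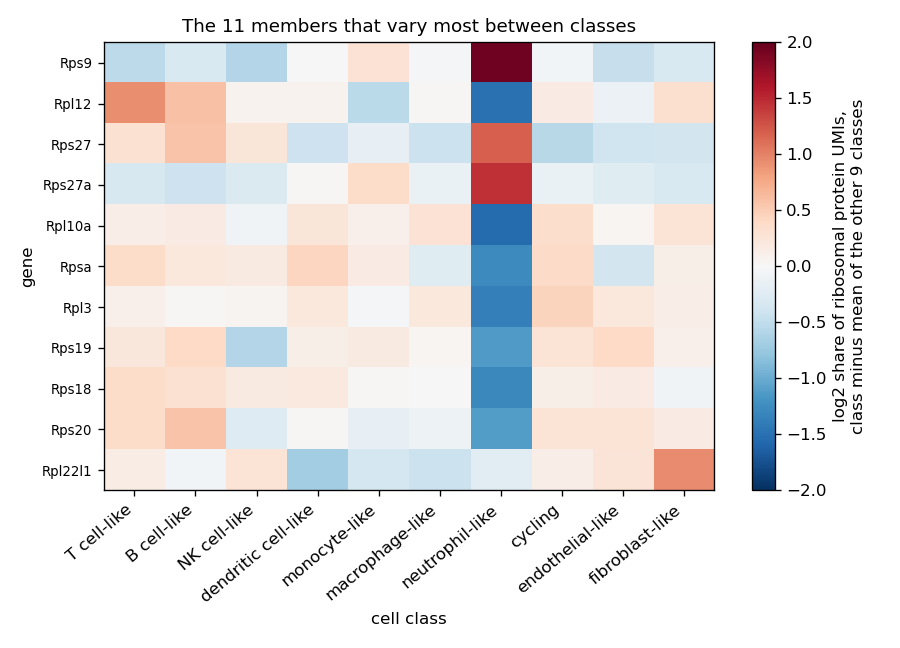
Heat map of the 11 members (rows) that vary most between the 10 classes (columns). Colour is the log2 share of the ribosomal protein UMIs in a class minus the mean of the other 9 classes, averaged over 6 libraries. Rps9 at 1.95 and Rpl10a at -1.53 mark the range in the neutrophil-like column, which departs more than any other column.

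Rpl3l did not follow the other members. It was counted at 17.4 and 18.1 CPM in neutrophil-like cells of the sham pair, 30.7 and 25.2 in the irradiated wild-type pair, and 23.4 and 36.4 in those labelled knockout. In macrophage-like cells the 6 values lay between 1.09 and 1.94. Among monocyte-like cells the level was 41.8 CPM in the cluster led by Cd300e and Ace, from 124 UMIs, and 4.59 in the cluster led by Chil3 and Ly6c2, from 38. Rpl3l is known from heart and skeletal muscle. The mixed cluster that carried heart muscle genes (2366 CPM for the cardiomyocyte marker list) had an Rpl3l level of 14 CPM, from 48 UMIs. The neutrophil-like and Cd300e clusters had 92.6 and 63.4 CPM for that list. The source of the Rpl3l counts was not tested. Rpl3l did not pass the test in any of the 4 classes in which it was testable, in either comparison, and the counts are few.

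For the comparison of irradiated with sham wild type, counts were summed per class and library and fitted with edgeR's quasi-likelihood test, with Benjamini-Hochberg adjustment over all genes of a class and adjusted p under 0.05 as a call. In macrophage-like cells all 80 members were tested, 1 fell and none rose, where 3.55% of all 12256 genes fell. That member was Rps29, a zinc-finger protein of the 40S. It was counted at 8431 and 8024 CPM in the sham pair, 6727 and 6785 in the irradiated wild-type pair, and 5936 and 5611 in those labelled knockout. The 3 groups did not overlap. The log2 fold change on irradiation was -0.27 ± 0.07 (SE, adjusted p = 0.0478, n = 2 and 2 libraries, edgeR). Rps29 was no longer called with any 1 of the 6 libraries left out, with at most 5% mitochondrial UMIs or at Leiden resolution 0.5. Over the 80 members the median log2 fold change was 0.016, and -0.001 over all genes.

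Relative to the ribosomal protein total of each library, that is with the sum of the members as the library size, 1 member rose and 1 fell in macrophage-like cells on irradiation, against 4.31% of all genes higher and 2.74% lower on that scale. Rps29 was the one that fell (-0.24 ± 0.05, adjusted p = 0.0263, edgeR). Rps19, the Diamond-Blackfan gene and a protein needed to mature the 40S, was the one that rose. It took 1.19% and 1.19% of the ribosomal protein UMIs in the sham pair, 1.40% and 1.41% in the irradiated wild-type pair, and 1.42% and 1.44% in those labelled knockout. Its log2 fold change was 0.24 ± 0.06 (adjusted p = 0.0399, edgeR). The libraries labelled knockout also lay above the same sham libraries, a difference that was not tested. The member with the largest fitted value on this scale was Rpl3l, at -0.27 ± 0.34, which did not pass. With 1 library left out Rps19 was not called in any of the 6 fits, Rps29 was called only without irradiated wild-type replicate 2, and neither DESeq2 nor the 5% mitochondrial limit left a call on this scale.

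In endothelial-like cells 4 of 80 members rose on irradiation and none fell, where 2.60% of 11252 genes rose. Rps19 again was counted higher, at 1695 and 1625 CPM in the sham pair against 2359 and 2190 in the irradiated wild-type pair and 2291 and 2265 in those labelled knockout. Its log2 fold change was 0.47 ± 0.07 (adjusted p = 0.0145, edgeR). Rpl15, a 60S protein, lay at 1230 and 1230 CPM in the sham pair, 1669 and 1552 in the irradiated wild-type pair and 1482 and 1549 in those labelled knockout. It rose by 0.41 ± 0.07 (adjusted p = 0.0283, edgeR). Rplp0, which carries the acidic stalk proteins RPLP1 and RPLP2, lay at 1427 and 1469, then 1818 and 1757, then 1672 and 1678, with a log2 fold change of 0.32 ± 0.07 (adjusted p = 0.0433, edgeR). Rpl7l1, a low-abundance paralog of Rpl7, lay at 49.3 and 57.1 CPM in the sham pair and at 75.2 and 96.5 in the irradiated wild-type pair, a log2 fold change of 0.70 ± 0.15 (adjusted p = 0.0471, edgeR).

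For each of these 4 genes, both irradiated groups lay above both sham libraries. For irradiated wild type this goes with the call itself, and both groups were set against the same sham pair. The libraries labelled knockout were not tested against sham, and the share of all genes with this pattern was not computed. On the scale of the ribosomal protein total 3 members rose in endothelial-like cells (2.20% of all genes): Rps19 (0.46 ± 0.07), Rpl15 (0.39 ± 0.07) and Rplp0 (0.31 ± 0.07). The endothelial-like cells were deeper in the irradiated wild-type pair, with medians of 7250 and 5631 UMIs against 4694 and 4816 in sham, and the part of depth in these changes was not tested. With either sham library or either library labelled knockout left out, no member was called. Without irradiated wild-type replicate 1 the count was 2, and without replicate 2 it was 14, of which 11 were higher and 3 lower. At the 5% mitochondrial limit it was 1 (0 relative to the ribosomal protein total), with DESeq2 8 and with no filter on low counts 13 (11 relative).

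In the remaining classes no member passed the test on irradiation. In neutrophil-like cells 0.0611% of 6542 genes were called in either direction, in monocyte-like cells 0.106% of 8480 and in B cell-like cells 0.0113% of 8827. At an unadjusted p under 0.05, 0 of 80, 1 of 80 and 0 of 79 members passed in those classes, and DESeq2 called none. In B cell-like cells the median member nonetheless had a log2 fold change of 0.177, 77 of 79 members lay above 0, and on the scale of the ribosomal protein total, where the percentage of genes called was 0, no member was called. The largest values on that scale were -0.22 for Rps29, -0.21 for Rps27 and 0.18 for Rps12. Irradiated wild-type replicate 2 stood apart: its B cell-like cells had 32.7% of their UMIs on the members against 29.1% in the other replicate and 28.4% and 29.3% in sham, and a median depth of 4088 UMIs against 2056 to 2975 in the other 5 libraries. Without replicate 1, so with replicate 2 standing alone for its group and assumed to vary like the others, 41 members were called higher, and without replicate 2 none was. The difference of the irradiation effect between macrophage-like and B cell-like cells was called for no member, while 0.780% of 12308 genes passed that interaction test. At an unadjusted p under 0.05, 2 members did, and without irradiated wild-type replicate 1 the count of calls was 29.

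For the genotype comparison, irradiated libraries labelled STING knockout were set against irradiated wild type. In macrophage-like cells 9 of 80 members fell and none rose, where 2.25% of all genes fell. Rpl38, a 60S protein known for its role in the translation of Hox transcripts in the mouse embryo, was counted at 2750 and 2617 CPM in sham, 2626 and 2481 in irradiated wild type, and 2011 and 1954 in the libraries labelled knockout. The last 2 libraries lay below the other 4, and the log2 fold change was -0.49 ± 0.07 (adjusted p = 0.0106, edgeR). Rpl39, whose product lines the exit tunnel of the nascent peptide, lay at 2908 and 2928, 3044 and 2900, and 2396 and 2304 CPM, or -0.46 ± 0.07 (adjusted p = 0.0127, edgeR).

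Rps27 and Rps21, both of the 40S, fell as far. Rps27 lay at 2887 and 2845 CPM in sham, 2609 and 2559 in irradiated wild type and 2143 and 1944 in the libraries labelled knockout (-0.46 ± 0.08, adjusted p = 0.017, edgeR). Rps21 lay at 2972 and 2872, 2628 and 2575, and 2134 and 2030 (-0.44 ± 0.07, adjusted p = 0.0137, edgeR). Both were also lower in the irradiated wild-type pair than in sham, a step that did not pass the test. The other 5 that fell were Rpl37, Rpl36, Rps29, Rpl37a and Rps28, with log2 fold changes from -0.39 to -0.32. Macrophage-like cells of the libraries labelled knockout were deeper, with medians of 8442 and 7932 UMIs against 4869 to 6772 in the other 4 libraries, and the part of depth in these changes was not tested. No member was called with either library labelled knockout left out, and 3 were called with either irradiated wild-type library left out. The count was 5 at the 5% mitochondrial limit and 4 at Leiden resolution 0.5.

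These 9 genes share a short coding sequence, a pattern noticed after the values were seen. They have 51 to 105 codons in the GENCODE vM21 annotation. Of the 10 members with at most 105 codons, Rpl41 was the only one not called, with a log2 fold change of 0.11. The 70 other members have 106 to 419 codons. The relation was not a gradient along all lengths. Over 79 members (without Rpl3l) Pearson's r of the fold change with log2 codons was 0.30 and Spearman's rho 0.092. Both describe genes that share the same libraries. All of the 9 but Rpl36 were also among the members with the most UMIs, from 758368 for Rpl37 to 1865946 for Rps29. Rpl36 had 515879. Other abundant members, for example Rps24 with 1046564 and Rplp1 with 948586, were not called. The part of abundance in the calls was not tested.

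**Figure D3:**
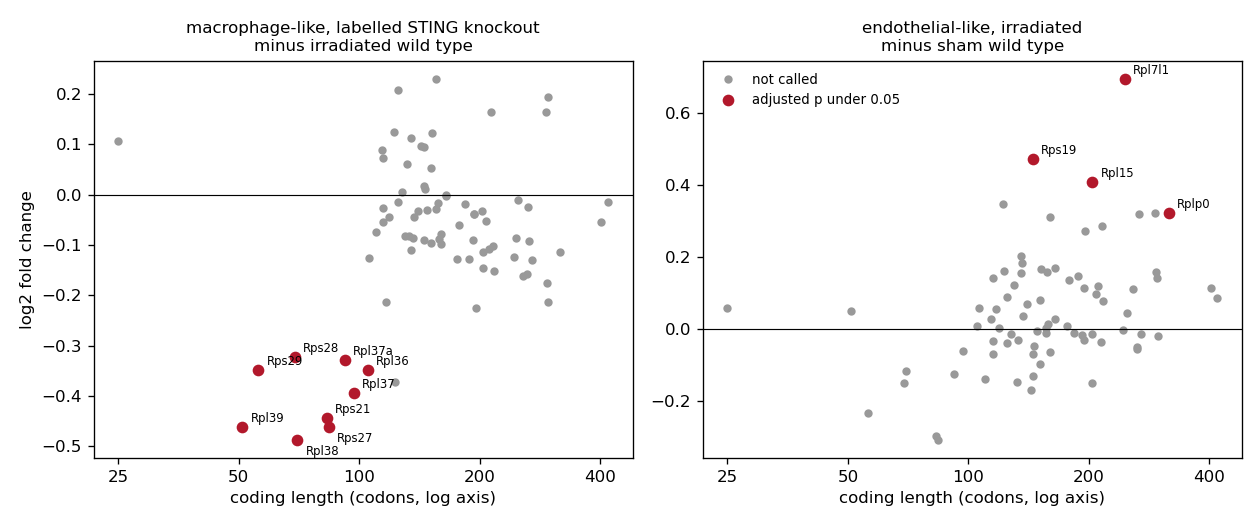
Log2 fold change (y axis) against coding length in codons (x axis, log scale) for 79 members, one point each, with called members in red. In macrophage-like cells (left, libraries labelled knockout minus irradiated wild type) the 9 red points have 51 to 105 codons, and in endothelial-like cells (right, irradiated minus sham wild type) the 4 red points lie above 0.

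In the 4 other classes tested the 9 genes also had fitted values below 0, but so had most members in some of them: of 79 members (without Rpl3l) 77 lay below 0 in B cell-like, 67 in endothelial-like, 32 in neutrophil-like and 25 in monocyte-like cells, and 60 in macrophage-like cells. In B cell-like cells the members lay lower as a whole, with 77 of 79 below 0 and a median of -0.247, against -0.007 over all genes, and irradiated wild-type replicate 2 had the high share of UMIs on the members given above. In that class 4 of 79 members fell, where 0.249% of genes fell: Rpl39 (-0.65 ± 0.12), Rpl38 (-0.60 ± 0.12), Rps21 (-0.57 ± 0.10) and Rps27 (-0.51 ± 0.10), with adjusted p from 0.0291 to 0.0447 (edgeR). Rpl39 was counted there at 8405 and 8842 CPM in sham, 8736 and 10067 in irradiated wild type, and 6729 and 6888 in the libraries labelled knockout. The count in this class was 0 with either sham library or either library labelled knockout left out, 59 without irradiated wild-type replicate 1 and 10 without replicate 2. It was also 0 with doublets kept, 2 at Leiden resolution 0.5, 10 with DESeq2 and 11 with no filter on low counts. In monocyte-like cells 3 of 80 members fell, where 0.554% of genes fell: Rps27 (-0.39 ± 0.08), Rpl38 (-0.36 ± 0.07) and Rps29 (-0.31 ± 0.06), with adjusted p of 0.0454, 0.042 and 0.0454 (edgeR). Those 3 calls held only without irradiated wild-type replicate 2 among the fits with 1 library left out, and DESeq2, the 5% mitochondrial limit and Leiden resolution 0.5 each left none, while 9 were called with no filter on low counts. In endothelial-like cells no member was called, where 0.0355% of genes were called in either direction. The fitted values there were of like size, for example -0.50 ± 0.09 for Rps27 and -0.40 ± 0.06 for Rpl38 (adjusted p 0.167 and 0.162, edgeR). At an unadjusted p under 0.05, 23 members passed, a count given without the share of all genes at that limit. DESeq2 called 9 in that class, and the edgeR count was 8 without irradiated wild-type replicate 1. The median mitochondrial share of these cells was 3.79% and 3.87% in the libraries labelled knockout and 4.61% to 5.59% in the other 4, and its part in the result was not tested. In neutrophil-like cells no member was called by either tool (0.382% of genes), 2 had an unadjusted p under 0.05, and the 9 genes had log2 fold changes from -0.37 to -0.17.

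**Figure D4:**
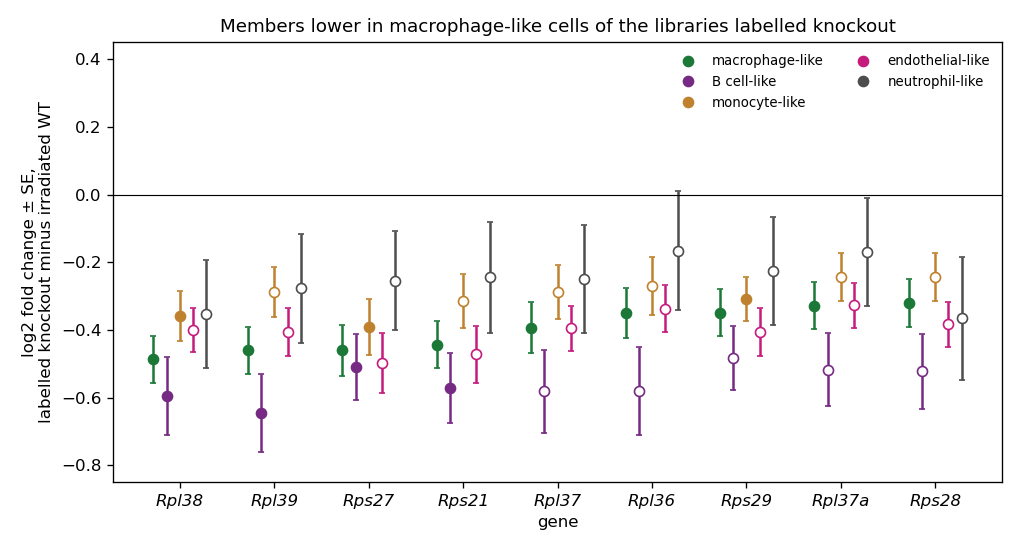
Log2 fold change with its SE (y axis) of the 9 members lower in macrophage-like cells (x axis), libraries labelled knockout minus irradiated wild type, in 5 classes shown by colour. Filled points passed an adjusted p of 0.05. All 45 points lie below 0, where of 79 members 60, 77, 25, 67 and 32 do in macrophage-like, B cell-like, monocyte-like, endothelial-like and neutrophil-like cells.

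Counted over all 10 classes, both libraries labelled knockout lay below both irradiated wild-type libraries in every class for Rpl37, Rpl38, Rpl39 and Rps21. That was so for 2.24% of the 847 genes with at least 20 UMIs in each library of each class. For Rps27 and Rps28 it was so in 9 classes, and for Rpl36, Rpl37a and Rps29 in 8. Rpl35, a 60S protein that did not pass the test in macrophage-like cells, was low in 9 classes. The median was 2 classes over the 78 members in this count and 2 over the 847 genes. The share over all genes was computed for all 10 classes only, not for 8 or 9. The macrophage-like class, in which the 9 genes were called, is 1 of the 10 counted. In the opposite direction, both libraries labelled knockout lay above both irradiated wild-type libraries in every class for Rpl23a and Rps25. That was so for 1.18% of the 847 genes. Some of the 9 genes were already lower in both irradiated wild-type libraries than in both sham libraries. This held in 8 classes for Rps29, 7 for Rps21 and Rpl37a, and 6 for Rps27 and Rps28. For Rpl38, Rpl37, Rpl39 and Rpl36 it held in 5, 3, 2 and 2. The median there was 2 classes over the members and 1 over the 847 genes, and the share of all genes at these counts was not computed. Rplp1 and Rps23, which are not among the 9, were also lower on irradiation in 6 classes. The classes of a library share its preparation and sequencing, so they are not independent of one another, and a difference between libraries that touches all cells and a difference between genotypes cannot be told apart.

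On the scale of the ribosomal protein total, members moved in both directions in macrophage-like cells of the libraries labelled knockout. There 6 members were lower and 4 higher, where 1.06% of genes were lower and 2.95% higher, on a scale that moved the median of all genes to 0.114. The 6 were Rpl38 (-0.37), Rps27 (-0.34), Rpl39 (-0.34), Rps21 (-0.33), Rpl37 (-0.28) and Rps29 (-0.23). The 4 were Rpl23a (0.35 ± 0.07), Rps25 (0.33 ± 0.07), Rpl5 (0.31 ± 0.07) and Rpl10 (0.28 ± 0.06), with adjusted p from 0.0321 to 0.0429 (edgeR). Rpl23a, which encodes a protein at the exit of the tunnel, took 0.456% and 0.457% of the ribosomal protein UMIs in sham, 0.450% and 0.420% in irradiated wild type, and 0.551% and 0.555% in the libraries labelled knockout, which lay above the other 4. The count of 10 was 0 with either library labelled knockout left out, 5 and 2 without the irradiated wild-type replicate 1 or 2, respectively, and 6 without either sham library. It was also 0 at the 5% mitochondrial limit, 4 at Leiden resolution 0.5 and 19 with no filter on low counts. In B cell-like cells 1 member was lower on this scale, Rpl39 (-0.34 ± 0.05, adjusted p = 0.0293, edgeR), where 0.125% of genes were lower and the median of all genes was 0.326. Rps25 (0.37 ± 0.10) and Rpl23a (0.35 ± 0.12) had larger values in that class and did not pass, and the count was 25 without irradiated wild-type replicate 1, 9 without replicate 2 and 0 with any other library left out. It was 0 with DESeq2, with doublets kept and at Leiden resolution 0.5, and 6 with no filter on low counts. In endothelial-like cells none was called, where 0.0355% of genes were called in either direction and the median of all genes was 0.137. There 19 members had an unadjusted p under 0.05, again without the share of all genes at that limit. DESeq2 called none there, and edgeR called 2 without irradiated wild-type replicate 1. The largest fitted values there were -0.99 ± 0.55 for Rpl3l, -0.34 ± 0.08 for Rps27 and -0.32 ± 0.08 for Rps21.

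Rps27rt, which lies outside the symbol pattern, is a retrogene copy of Rps27, and it moved against its parent in the same comparison. It was counted at 29.9 and 21.3 CPM in macrophage-like cells of sham, 18.8 and 22.0 in irradiated wild type, and 43.8 and 35 in the libraries labelled knockout, a log2 fold change of 0.82 ± 0.16 (adjusted p = 0.032, edgeR). Of the UMIs given to Rps27 and Rps27rt together, the copy took 1.03%, 0.742%, 0.716% and 0.852% in the wild-type libraries and 2.01% and 1.77% in those labelled knockout. In all 10 classes the libraries labelled knockout had the higher share. The sum of both was 2187 and 1979 CPM in the libraries labelled knockout against 2628 and 2581 in irradiated wild type. Ribosomal protein genes have many near-identical pseudogene copies, and UMIs that match more than one of them can be split or lost in counting, so the levels of single members are uncertain to that extent.

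**Figure D5:**
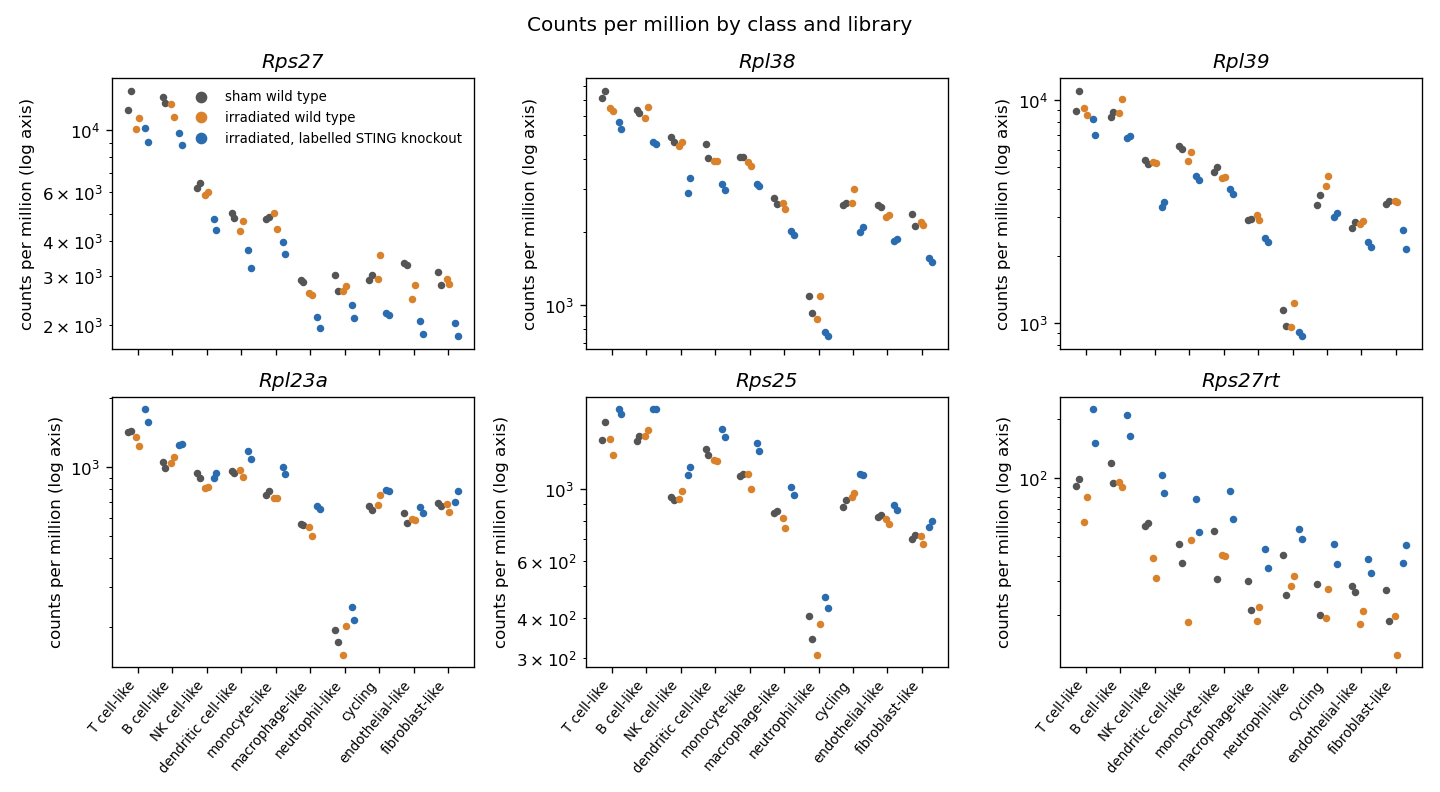
Counts scaled to the library total (CPM, y axis, log scale) in 10 classes (x axis), one point for each of 6 libraries coloured by group, for 5 members and for Rps27rt, which lies outside the symbol pattern. The libraries labelled knockout are lower for Rpl38 and Rpl39 and higher for Rpl23a and Rps25 than irradiated wild type in every class.

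Rps27l, the p53-induced paralog of Rps27 that the rule left out, rose on irradiation in macrophage-like cells (0.57 ± 0.08, adjusted p = 0.00459) and endothelial-like cells (1.65 ± 0.10, adjusted p = 0.000288, edgeR). In endothelial-like cells it went from 245 and 247 CPM in sham to 821 and 699 in irradiated wild type and 768 and 746 in the libraries labelled knockout. Rps27 itself had -0.31 there and did not pass.

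Members with known roles outside or beside the common function were also read whatever their values. Rpl5 and Rpl11, the 5S particle that binds MDM2, were not called in any of 5 classes in either comparison on the usual scale. Their log2 fold changes on irradiation lay between -0.18 and 0.04 for Rpl5 and between 0.02 and 0.25 for Rpl11. Rps6, the substrate of the S6 kinases, lay between -0.09 and 0.18, Rps3 between -0.05 and 0.19, and Rps14, lost in the 5q- syndrome, between -0.16 and 0.11. Rpl13a, a part of the interferon-gamma-activated inhibitor of translation, lay between -0.15 and 0.19. None of these was called.

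In the genotype comparison the same genes lay between -0.35 and 0.24, and none was called on the usual scale. Rpsa, Rps27a, Rps4x, Rpl3, Rpl17, Rpl22, Rpl22l1, Rplp1 and Rplp2 were not called in either comparison in any of the 5 classes. The acidic stalk genes Rplp1 and Rplp2 lay at 8432 ± 1023 and 3897 ± 590 CPM (SD, n = 6) in T cell-like cells and at 696 ± 99.8 and 504 ± 41.5 in neutrophil-like cells. Of the 23 members read in this way, neutrophil-like cells had the lowest level for 21. The exceptions were Rps27a, lowest in fibroblast-like cells at 1642 ± 35.4, and Rpl3l, lowest in B cell-like cells.

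Other genes of ribosome production were counted from lists. Of all genes, 4.58% rose and 3.55% fell on irradiation in macrophage-like cells, and 2.60% rose in endothelial-like cells, and the counts below are to be read against these. Of 40 ribosome biogenesis genes, 3 rose on irradiation in macrophage-like cells and none fell: Nhp2 (0.52), a protein of box H/ACA particles, Fbl (0.45), the methyltransferase fibrillarin, and Mrto4 (0.39), a 60S assembly factor. In endothelial-like cells 2 of 40 rose, Rrp15 (1.02) and Mrto4 (0.97). The list medians were 0.19 and 0.41, against -0.001 and -0.018 over all genes. Of 78 mitochondrial ribosomal protein genes, which build a separate ribosome, 9 rose in macrophage-like cells and 3 in endothelial-like cells, none fell, and the medians were 0.23 and 0.34. The count in endothelial-like cells is near the share over all genes. A further list held 25 other genes listed as having a 5' terminal oligopyrimidine tract, not all of which act in translation. Of these only Eif4b fell in macrophage-like cells (-0.36) and only Vim, which is not a translation gene, rose in endothelial-like cells. Of 16 RNA polymerase I genes, only Taf1d fell in macrophage-like cells, and none was called in endothelial-like cells.

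Of 28 genes of mTOR and Myc control, 1 rose and 3 fell on irradiation in macrophage-like cells (Sesn2, then Mxi1, Deptor and Mxd4), and 3 of 28 rose in endothelial-like cells. Of 18 and 19 genes of the integrated stress response, 3 and 2 rose and none fell. These lists are small, and their counts stand against the same 4.58%, 3.55% and 2.60% of all genes. Sesn2, an inhibitor of mTOR complex 1 and a p53 target, rose on irradiation in macrophage-like cells (0.97 ± 0.15) and endothelial-like cells (1.77 ± 0.29), and Eif4ebp1, the translation repressor that mTOR inactivates, rose in endothelial-like cells (0.86 ± 0.13). In the genotype comparison of macrophage-like cells, where 2.25% of all genes fell and 1.31% rose, 4 of 18 genes of the integrated stress response fell and none rose: Sesn2 (-0.74), Ddit3 (-0.64), Atf3 (-0.55) and Atf4 (-0.41). Of 28 mTOR and Myc genes 3 fell there, Sesn2, Myc (-0.56) and Eif4e (-0.45). In that comparison Snhg8 (-0.43), a noncoding gene, fell among the 25 genes listed for a tract, and Utp20 (0.80) rose among the 40 biogenesis genes. None of 16 RNA polymerase I or 78 mitochondrial ribosomal protein genes was called. In endothelial-like cells no gene of these lists was called between genotypes. No gene of the lists was called on irradiation in neutrophil-like, B cell-like or monocyte-like cells.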

How the data were processed

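The deposited matrices hold UMI counts per gene and cell barcode for 6 libraries, per the file headers. Per the submitters' processing notes, Cell Ranger 5.0.0, Seurat 3 and the build mm10 were used, with no order or role given. Barcodes with at least 200 genes and at most 10% mitochondrial UMIs were kept. Of all barcodes 23.2% to 33.4% were over that limit. Doublet scores were computed per library, and the highest-scoring 0.8% per 1000 cells were removed, 98 to 321 per library, because the automatic threshold marked 0 to 3. Cells were clustered with scanpy 1.11.5 (2000 variable genes without ribosomal protein genes, 30 components, Leiden resolution 1.0) and named from marker genes. A cluster was left out as mixed where a second lineage's markers reached a median of 0.5 of their highest detection rate in any cluster. The rule did not apply to cycling cells, and the limit was chosen after the clusters were seen.

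Counts were summed per class and library and fitted over all 6 libraries in edgeR 4.0.16 (R 4.3.3) with its low-count filter and TMM. A second fit used the members' summed counts as library size. DESeq2 1.42.0, a replicate block, other filters, another clustering and each library left out were alternatives. No DESeq2 or block alternative was made for the interaction. Each group had 2 libraries, and the fits had 3 residual degrees of freedom. Tested on simulated counts, the macrophage-like fit called 85.6% of genes changed 2-fold and 35.1% of those changed 1.5-fold among 12164 genes. It called 7 of 20 members lowered to 0.75 of their level. In the B cell-like simulation 0 of 20 such members were called, and in the endothelial-like one 2 of 20.

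Named were the members called (at most 10 per comparison), the 3 largest values where fewer than 3 were called relative to the ribosomal protein total, the 12 most variable between classes, a set read whatever its values, and at most 4 called genes of each other list. Some results that this rule names are not reported here. The members and lists were chosen with earlier results of these data known. Classes, shares and coding lengths are descriptions without a test. Counts of members at an unadjusted p and in alternative fits are given without the share of all genes in the same fit. They show how the calls depend on the processing and are not read as results about the members.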

Additional observations from a re-analysis of the deposited data

Results flagged for a closer look

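The share of UMIs on the ribosomal protein genes moved in opposite directions in different classes, with no overlap between the libraries of the groups compared. Only classes without overlap are listed, and with 2 libraries against 2 an exact permutation test cannot give a two-sided p below 0.333. The differences between classes were not tested. On irradiation the group mean was higher by 0.45 percentage points in NK cell-like cells and by 1.90 in cycling cells. It differed by -3.95 in T cell-like, -0.65 in monocyte-like, -0.30 in macrophage-like and -0.30 in fibroblast-like cells. In the libraries labelled knockout the mean differed from irradiated wild type by 2.75 percentage points in T cell-like and 0.80 in monocyte-like cells. It differed by -2.70 in B cell-like, -2.80 in NK cell-like, -1.50 in cycling, -0.65 in endothelial-like and -1.15 in fibroblast-like cells.

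Rpl3l was also counted in clusters that entered no comparison. It lay at 14 CPM in the mixed cluster with heart muscle genes, at 28.7 in an unnamed cluster led by Cd300e and at 11.0 in a mixed cluster led by Il1r2.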

How the results depend on the processing

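Among the members called in a main fit (at most 10 per fit), no fold change changed direction under an alternative run. Members named without a call were not compared in this way. The order of the T cell-like and B cell-like shares did turn, with 25.4% and 28.8% at Leiden resolution 0.5. Of the counts of called members, 112 alternatives stayed within 1.5 times the main count and 96 did not. Of the log2 fold changes of those called members, 228 kept their side of the threshold and 232 kept their direction only. Where not given otherwise, the cause was not tested. Counts are given as irradiation or genotype, then class, and "relative" means relative to the ribosomal protein total.

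With the replicate block the count was 0 for irradiation and 4 for genotype in macrophage-like cells (6 relative), 1 for irradiation in endothelial-like cells (1 relative) and 1 for genotype in monocyte-like cells. Deviations of same-numbered libraries correlated at 0.156 to 0.276 in B cell-like cells and at -0.109 to 0.047 in the other classes, and no label says that a number marks a shared animal or day, so the block was not taken as the design. In B cell-like cells, where all 3 correlations were over 0.1, it moved the genotype count from 4 to 14 and the relative one from 1 to 12. With at most 5% mitochondrial UMIs the counts were 0 and 5 in macrophage-like cells (relative 0 and 0), 1 for irradiation in endothelial-like cells (relative 0) and 0 for genotype in monocyte-like cells. B cell-like cells and the interaction were not run at 5%, where 1 library had 17 cells. At Leiden resolution 0.5 the counts were 0 and 4 in macrophage-like cells (relative 1 and 4), 2 for genotype in B cell-like cells (relative 0) and 0 for genotype in monocyte-like cells. DESeq2 gave 0 for irradiation relative in macrophage-like cells, 10 for genotype in B cell-like cells (relative 0), 8 and 9 in endothelial-like cells and 0 for genotype in monocyte-like cells. With no filter on low counts the values were 19 for genotype relative in macrophage-like cells, 11 for genotype in B cell-like cells (relative 1 and 6), 13 and 10 in endothelial-like cells (relative 11 and 8) and 9 for genotype in monocyte-like cells. With doublets kept the genotype count in B cell-like cells was 0 (relative 0).

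With 1 library left out, macrophage-like counts ranged from 0 to 0 for irradiation (relative 0 to 1) and from 0 to 9 for genotype (relative 0 to 6). B cell-like counts ranged from 0 to 41 (relative 0 to 8) and from 0 to 59 (relative 0 to 25). Endothelial-like counts ranged from 0 to 14 (relative 0 to 11) and from 0 to 8 (relative 0 to 2). Monocyte-like counts were 0 to 0 and 0 to 3, neutrophil-like counts 0 to 0 in both, and the interaction 0 to 29.

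The share of UMIs on the members at 5% mitochondrial UMIs was 22.6% in T cell-like (25.4% at resolution 0.5), 21.7% in dendritic cell-like, 18.8% in monocyte-like and 13.3% in macrophage-like cells. It was 11.9% in endothelial-like cells thinned to 2000 UMIs. Of 36 departures in neutrophil-like cells, 4 moved beyond their spread, all at 5%: Rpsa to -1.41, Rpl3 to -1.59, Rps19 to -1.33 and Rpl22l1 to -0.01. Depth limits Rpl3l and Rpl7l1 most, and intervals between libraries rest on 2 per group.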
